A study of Mus musculus with 34 samples.

Results

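Late-life change was examined between 6 months (6m, 5 libraries) and 18 months (18m, 4 libraries), taken by age label as 9 of the 34 libraries of the series. All were polyadenylated RNA of astrocytes isolated by a magnetic method from the cortex of wild-type (WT) male mice. No transgene, treatment or mutation was named, and the series spans 9 ages from P7 to 18m. Younger adults at 3 months (3m) were left out as the baseline, and the 3 libraries at 12 months (12m) are given as levels and entered a fit only in the alternatives that used all 34 libraries. Nothing in the labels ties a library to its own animal, and p-values measure only the spread between these libraries.

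Astrocytes are the glial cells that clear glutamate and potassium from the extracellular space, supply neurons with lipids and metabolites, and secrete proteins that act on synapses. In rodent cortex most astrocytes stop dividing after the first postnatal weeks. Old astrocytes are known for raised complement and antigen presentation genes and for changes in lipid metabolism. These genes were therefore listed and their values are given below.

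Values are TPM, the share of a transcript among all transcripts of a library, corrected for transcript length. They hold no read counts, so depth is unknown. Of 20613 genes, the 13248 with at least 1 TPM in at least 4 of the 9 libraries were tested on log2(TPM + 1), and a gene was called at a limma adjusted p under 0.05. Log2 fold changes are on that scale, which understates the change of low genes, and other folds are ratios of mean TPM. The mature astrocyte markers summed to 89468 to 150941 TPM in the libraries at 6m and 118673 to 129804 at 18m, and no marker of any of the 10 other cell type lists was at 0 in all 9 libraries.

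A first limit of the comparison is the number of genes listed at 0 TPM. It was 1446 ± 197 at 6m (SD, n = 5, range 1216 to 1704) and 4299 ± 247 at 18m (SD, n = 4, range 4109 to 4654), with no overlap between the ages (exact two-sided permutation test, p = 0.00794, the smallest that 126 splits allow). At 12m, replicates 1 and 2 had 4556 and 4532 genes at 0, close to 18m, and replicate 3 had 1615, within the range of 6m. Odour, taste and vomeronasal receptor genes together held 258 ± 104 TPM at 6m and 53.0 ± 10.7 at 18m (SD, n = 5 and 4, exact permutation p = 0.0159). The same sum was 44.6, 35.1 and 425 TPM in 12m replicates 1, 2 and 3. Age and the number of genes at 0 cannot be told apart between 6m and 18m. The 12m libraries, of 1 age but with both low and high numbers, are therefore placed between 6m and 18m for the called genes. Their TPM are given for some genes only.

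**Figure D1:**
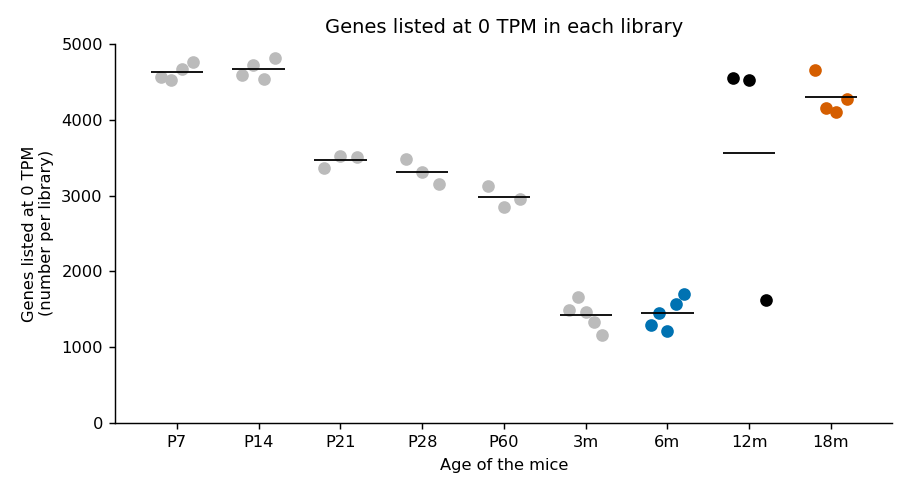
Number of genes listed at 0 TPM (y axis) in each library (points) by age (x axis), with the mean of each age as a line; 6m is blue, 12m black and 18m orange. The 5 libraries of 6m lie between 1216 and 1704 and the 4 of 18m between 4109 and 4654, and 12m has 2 libraries near 18m and 1 near 6m.

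Between the 2 ages 59 genes were called, 0.445% of those tested. Of these, 12 were higher at 18m (0.0906%) and 47 lower (0.355%). All 59 had no overlap between the 5 and 4 libraries, as did 742 genes in all (5.6%). The median log2 fold change over all tested genes was -0.14, and an unadjusted p under 0.05 was reached by 503 genes upward (3.8%) and 1835 downward (13.9%). After median-of-ratios rescaling the median was 0.03 and 46 genes were called higher and 45 lower. Quantile normalization gave 32 and 30, so the split between rises and falls depends on the scaling.

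Single libraries weighed on these counts. Without 6m replicate 5, 194 genes were called, and without 6m replicate 3, 32. Without 18m replicate 2, or without 18m replicate 4, only 10 were called. Replicate 5 was the 6m library most like 18m, with correlations across genes of 0.977 to 0.986 to the 18m libraries and 0.959 to 0.970 to the other 6m libraries. It had the lowest 6m value for 37 of the 47 genes that fell. Replicate 1 of 18m had the lowest 18m value for 9 of the 12 genes that rose. With both left out, a choice made after seeing the data, 87 genes were called, 20 higher and 67 lower, among them 50 of the 59.

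**Figure D2:**
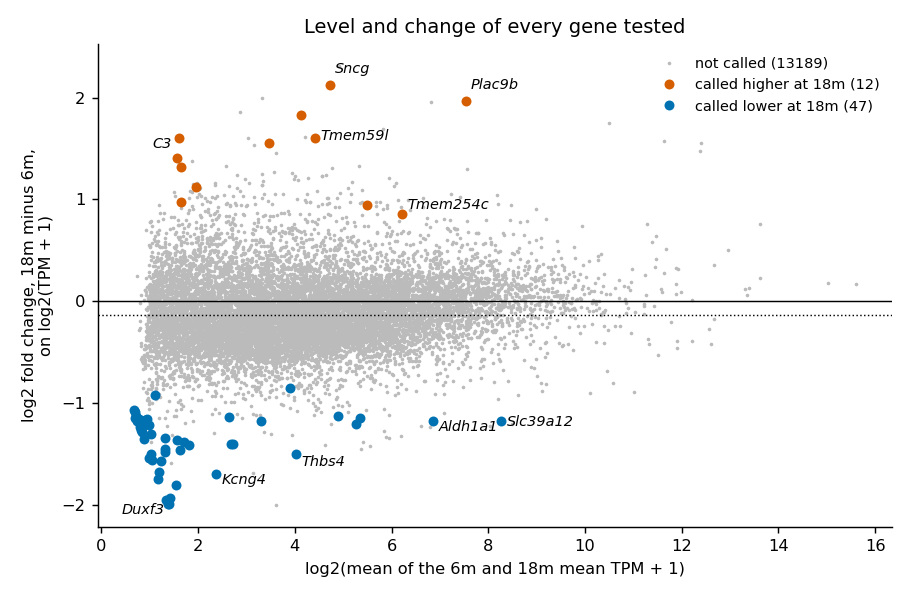
Log2 fold change from 6m to 18m (y axis) against the mean level of each gene (x axis, log2 scale) for the 13248 genes tested; grey points were not called, orange were called higher and blue called lower at 18m. Solid and dotted lines mark 0 and the median of -0.14, and 36 of the 47 falls lie at a mean below 5 TPM.

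Among the rises, a group of neighbouring genes lay in a duplicated locus on chromosome 14. Plac9a and Plac9b encode a small secreted protein first described in placenta, and Tmem254b and Tmem254c encode a small membrane protein. Both pairs rose, and they make up 4 of the 12 genes called higher. On leaving out 1 library in turn, Plac9b was called in 9 of 9 fits, Plac9a in 8, Tmem254c in 7 and Tmem254b in 3. Tmem254b also lost its call with the 10 TPM filter, the replicate block, the neuron and oligodendrocyte covariates and without the trend and robust settings. Plac9b (chr14:26167405-26182480, GRCm38, minus strand) had 65.8, 51.2, 55.3, 99.9 and 117 TPM in the 5 libraries of 6m and 353, 263, 275 and 282 TPM in the 4 of 18m. The lowest 18m library was above the highest 6m library by more than 100 TPM. The means were 77.9 ± 29.2 and 293 ± 40.4 TPM (SD, n = 5 and 4), 3.76-fold higher at 18m (log2 fold change 1.97 ± 0.23 SE, adjusted p = 0.00525). Plac9a (chr14:25887506-25903100, minus strand) was 3.86-fold higher at a lower level, from 6.80 ± 2.75 to 26.3 ± 8.17 TPM (adjusted p = 0.0134).

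The copies share most of their transcript sequence, and how the counting divided shared reads between them is not given in the sources used here. Of the 50-base words in the annotated transcripts of Plac9b, 96.6% also occur in those of Plac9a, and 70.5% of the words of Plac9a occur in Plac9b. All words of Tmem254c (100%) occur in Tmem254b, and 80.3% the other way, so the values of single copies are uncertain. The sequences before the RefSeq start sites are shown because the copies share sequence there too. These are the 250 bases before the RefSeq start of each gene (GRCm38.p6, chr14:25902894-25903143 for Plac9a and chr14:26182352-26182601 for Plac9b, both minus strand, 5′ to 3′), with the longest run found in both windows, 172 bases, in capitals. By the GENCODE positions given above both genes start further upstream, so much of each window, and of the shared run, lies within the GENCODE gene. The run reaches an edge of each window, so its full length was not measured.
Plac9a: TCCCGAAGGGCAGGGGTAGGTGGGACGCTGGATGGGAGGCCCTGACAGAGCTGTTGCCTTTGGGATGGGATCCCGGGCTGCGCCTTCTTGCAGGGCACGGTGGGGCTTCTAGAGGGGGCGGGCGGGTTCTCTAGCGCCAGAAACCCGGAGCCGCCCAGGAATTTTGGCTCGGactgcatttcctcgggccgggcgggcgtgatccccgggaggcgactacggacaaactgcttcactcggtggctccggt
Plac9b: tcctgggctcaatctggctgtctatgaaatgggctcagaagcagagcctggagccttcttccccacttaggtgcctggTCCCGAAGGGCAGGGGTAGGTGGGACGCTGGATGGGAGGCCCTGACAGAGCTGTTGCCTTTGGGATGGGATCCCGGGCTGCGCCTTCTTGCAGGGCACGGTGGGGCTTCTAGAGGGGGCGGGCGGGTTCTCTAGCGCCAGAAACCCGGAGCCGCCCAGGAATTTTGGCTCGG

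Sums over the copies avoid the split of reads. Plac9a and Plac9b together held 84.7 ± 31.8 TPM at 6m, 95.8 ± 37.4 at 12m and 320 ± 47.2 at 18m (SD, n = 5, 3 and 4). Tmem254a, Tmem254b and Tmem254c together held 88.3 ± 7.66, 79.7 ± 13.6 and 164 ± 19.6 TPM at the same ages. In both sums the 12m libraries were near 6m, including replicates 1 and 2, whose numbers of genes at 0 resemble 18m. The sums did not rise steadily over life. Plac9a and Plac9b together held 543 ± 136 TPM at P28 (SD, n = 3), 137 ± 37.1 at P60 (SD, n = 3) and 265 ± 86.6 at 3m (SD, n = 5). The Tmem254 sum was 55.8 ± 4.42 TPM at P60 and 195 ± 35.3 at 3m (SD, n = 3 and 5). Both sums were thus lower at 6m and 12m than at 3m and 18m. Tmem254c alone had 45.4, 52.1, 53.2, 57.3 and 50.8 TPM at 6m and 85.7, 103, 95.9 and 93.9 TPM at 18m (chr14:26063919-26067355, minus strand). Its libraries were tightly grouped at both ages, and it was 1.83-fold higher (log2 fold change 0.86 ± 0.12 SE, adjusted p = 0.0106).

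Outside that locus, the largest rises in log2(TPM + 1) among called genes of at least 5 TPM at 18m were Sncg, Tmem59l and Tmem255b. Sncg, which encodes gamma-synuclein and is best known in neurons, had 9.59, 5.30, 3.73, 11.0 and 19.4 TPM at 6m and 32.6, 34.8, 47.0 and 49.5 at 18m. It was 4.17-fold higher, with 6m replicate 5 the nearest to 18m (chr14:34370274-34374789, log2 fold change 2.12 ± 0.37 SE, adjusted p = 0.0378). The call was lost in 7 of 9 fits that left out 1 library (adjusted p up to 0.159). It was also lost with the 10 TPM filter, the neuron and oligodendrocyte covariates and the genes-at-0 term. Tmem59l, a membrane protein gene on chromosome 8 (70483867 to 70487358), had 5.89, 12.1, 10.1, 7.94 and 10.9 TPM at 6m and 17.3, 32.0, 37.4 and 37.9 at 18m. Replicate 1 was the low library at 18m, and the gene was 3.31-fold higher (log2 fold change 1.60 ± 0.25 SE, adjusted p = 0.0153). At 12m Tmem59l was at 18.4, 21.3 and 32.3 TPM, all nearer to 18m than to 6m. The means of Tmem59l at P60 and 3m were also nearer to 18m on the log2 scale, so 6m was its lowest adult age. Tmem255b, also a membrane protein gene, went from 4.64 ± 2.20 to 15.3 ± 4.85 TPM (SD, n = 5 and 4, adjusted p = 0.0433). It was called in 3 of the 9 fits that left out 1 library, and not with the replicate block, the neuron and oligodendrocyte covariates, the genes-at-0 term or without the trend and robust settings.

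C3, the central component of the complement cascade, was the single gene of the 36 lists called higher. It had 0.316, 0.265, 0.418, 1.33 and 0.563 TPM at 6m and 1.37, 3.15, 4.95 and 3.74 at 18m (chr17:57203970-57228136, minus strand). The 2 ages barely failed to overlap, with 6m replicate 4 at 1.33 and 18m replicate 1 at 1.37 TPM. Its mean was 5.70-fold higher, 0.579 ± 0.436 against 3.30 ± 1.49 TPM (SD, n = 5 and 4, log2 fold change 1.41 ± 0.27 SE, adjusted p = 0.0469). All 3 libraries of 12m, at 1.62, 2.33 and 4.10 TPM, were nearer to 18m. The highest of them was replicate 3, which had the fewest genes at 0. C3 was called in 3 of the 9 fits that left out 1 library and was still called with genes at 0 as a model term. It was not called with the neuron and oligodendrocyte covariates, with the replicate block or without the trend and robust settings. A level of a few TPM is low, and P60 had 2.77 TPM on average.

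The other rises were at a few TPM. Aoc1, which encodes the histamine-degrading diamine oxidase, went from 0.825 ± 0.586 to 3.45 ± 0.982 TPM (SD, n = 5 and 4). The N-acetylglucosamine sulfotransferase gene Chst5 went from 1.43 ± 0.464 to 4.34 ± 1.21 TPM, and C1ql2, a secreted C1q-like protein of synapses, from 1.09 ± 0.237 to 3.13 ± 0.664 TPM. These 3 and the unnamed transcript 4930572O03Rik, which completes the 12, were below the level of 5 TPM set for naming and were chosen after their values were seen.

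**Figure D3:**
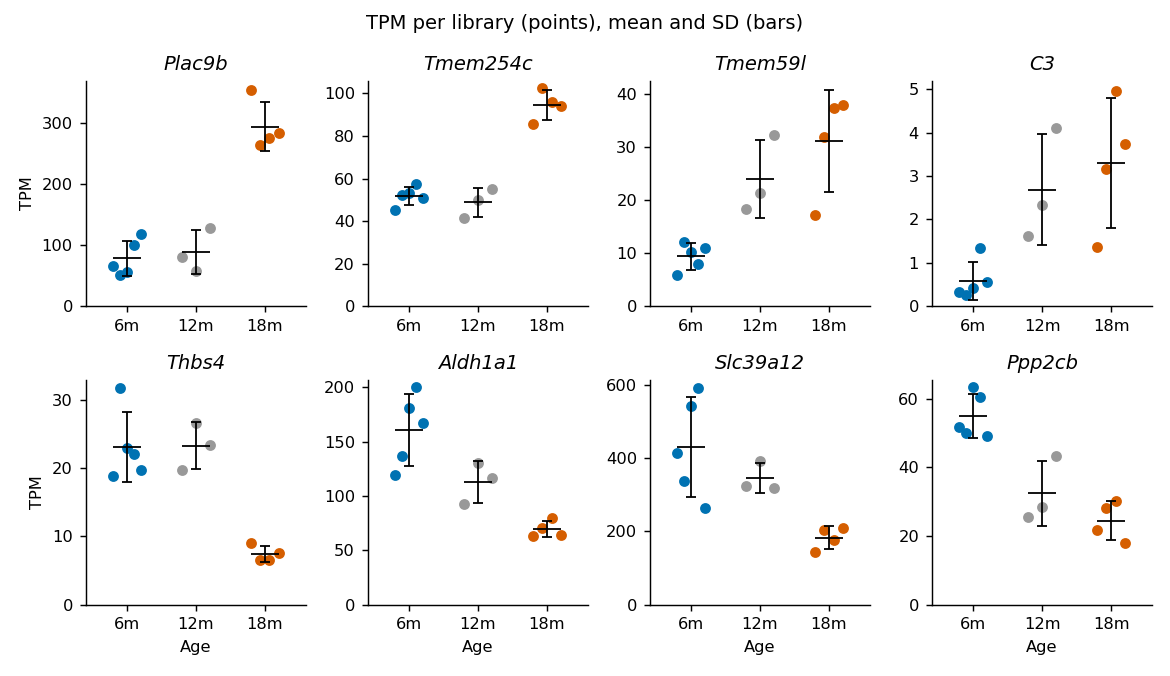
TPM (y axes, each from 0) in every library of 6m, 12m and 18m (points) for 8 called genes, with the mean and SD as bars. Plac9b, Tmem254c and Thbs4 at 12m sit with 6m, while Tmem59l and C3 at 12m lie between and reach the values of 18m.

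Of the 12 falls that ended at 1 TPM or more, Thbs4 had the smallest adjusted p. Thbs4 encodes thrombospondin 4, a secreted glycoprotein of the extracellular matrix that binds at synapses (chr13:92751590-92794818, minus strand). It had 18.9, 31.7, 23.003, 22.1 and 19.7 TPM at 6m and 9.05, 6.58, 6.51 and 7.59 at 18m. No 18m library reached the lowest of 6m, and the mean was 3.10-fold lower (23.1 ± 5.09 to 7.43 ± 1.19 TPM, SD, n = 5 and 4, log2 fold change -1.50 ± 0.18 SE, adjusted p = 0.00525). The 3 libraries of 12m had 19.8, 26.6 and 23.4 TPM, all at the level of 6m. Thbs4 was called in each of the 9 fits that left out 1 library. Of the other 15 tested genes for secreted synapse regulators none was called, and the list median was -0.31.

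Aldh1a1, a retinaldehyde dehydrogenase that makes retinoic acid, had 119, 136, 181, 200.03 and 167 TPM at 6m and 63.3, 70.7, 79.4 and 64.3 at 18m (chr19:20492715-20643465). It was 2.32-fold lower, from 161 ± 32.8 to 69.4 ± 7.41 TPM (SD, n = 5 and 4, log2 fold change -1.18 ± 0.16 SE, adjusted p = 0.00866), and was also called in each of the 9 fits. At 12m it had 92.4, 130.1 and 117 TPM, between the 2 ages. Slc39a12, which encodes the zinc importer ZIP12, was the most abundant gene called lower, with 414, 338, 542, 591 and 263 TPM at 6m and 143, 204, 177 and 209 at 18m (chr2:14388316-14494977). The low 6m library was replicate 5, and the gene was 2.34-fold lower (log2 fold change -1.18 ± 0.23 SE, adjusted p = 0.0469). Its call held in 1 of the 9 fits that left out 1 library. At 12m it stood at 325, 392 and 318 TPM, nearer to 6m in all 3. Cd38, an enzyme that consumes NAD+, had 29.5, 32.1, 43.6, 55.7 and 39.0 TPM at 6m and 16.7, 18.7, 19.0 and 14.8 at 18m (chr5:43868553-43912375). It was 2.31-fold lower (adjusted p = 0.0178), and at 12m it followed the number of genes at 0, with 24.6 and 21.001 TPM in replicates 1 and 2 and 46.1 in replicate 3. Cd38 was called in 6 of the 9 fits that left out 1 library. Its call was lost with the 10 TPM filter, the replicate block, the neuron and oligodendrocyte covariates and the genes-at-0 term. It was also lost with 6m replicate 5 and 18m replicate 1 left out together.

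Ppp2cb and Mbd2 also fell, to levels that stayed above 10 TPM. Ppp2cb encodes a catalytic subunit of the phosphatase PP2A (chr8:33599625-33619441) and had 51.6, 50.1, 63.2, 60.5 and 49.2 TPM at 6m and 21.8, 28.2, 30.1 and 17.9 at 18m. Its means were 54.9 ± 6.46 and 24.5 ± 5.64 TPM (SD, n = 5 and 4, log2 fold change -1.15 ± 0.17 SE, adjusted p = 0.0131). Mbd2, a reader of methylated DNA, went from 51.6 ± 5.88 to 23.1 ± 10.3 TPM (2.24-fold lower, adjusted p = 0.0342), with 18m replicate 3 at 38.3 TPM apart from the rest. Its call held in 2 of the 9 fits that left out 1 library and was lost after median-of-ratios rescaling and quantile normalization. In both genes 12m replicates 1 and 2 were nearer to 18m and replicate 3 nearer to 6m. Magi3, a scaffold protein, and Rab21, a small GTPase of endosomes, were 2.47-fold and 1.89-fold lower (adjusted p = 0.0321 and 0.0391), and were called in 2 and 1 of the 9 fits. Kcng4, a modifier subunit of potassium channels, was 5.201-fold lower, from 6.92 ± 2.86 to 1.33 ± 0.388 TPM (adjusted p = 0.0153), and the membrane protein gene Tmem91 3.32-fold lower (adjusted p = 0.0363). Tmem91 was called in 2 of the 9 fits, and both Tmem91 and Rab21 lost the call after median-of-ratios rescaling and quantile normalization.

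A few genes of cell division fell, at low levels, while the cell cycle list as a whole had 1 called member of 25. Birc5, which encodes survivin, a protein of the dividing chromosome, had 9.01, 6.25, 11.8, 10.9 and 4.77 TPM at 6m and 1.35, 4.02, 2.31 and 2.598 at 18m (chr11:117849251-117855743). It was 3.32-fold lower (log2 fold change -1.41 ± 0.28 SE, adjusted p = 0.0483), and 6m replicate 5 was close to 18m. It was called in 1 of the 9 fits that left out 1 library, the one without 6m replicate 5. Pclaf, a factor that binds the replication clamp, had 6.53, 6.14, 7.63, 11.4 and 6.53 TPM at 6m and 2.98, 2.95, 3.04 and 2.43 at 18m (chr9:65890237-65903266, 2.68-fold lower, adjusted p = 0.0213). Pclaf was called in 5 of the 9 fits. Its call was lost with the replicate block, the neuron and oligodendrocyte covariates and the genes-at-0 term, and with 6m replicate 5 and 18m replicate 1 both left out. Another 2 were named after their values were seen. Cdkn3, a phosphatase that acts on cyclin-dependent kinases, went from 3.30 ± 1.11 to 0.633 ± 0.310 TPM, and Exo1, an exonuclease of DNA repair, from 1.84 ± 0.281 to 0.487 ± 0.0939 TPM (SD, n = 5 and 4, adjusted p = 0.0258 and 0.0319).

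Of 25 cell cycle genes on the list, Birc5 alone was called, 7 reached an unadjusted p under 0.05 and all 7 were lower (background 13.9%), and 21 had a negative log2 fold change, with a median of -0.42. Rrm2 and Rrm1, the subunits of ribonucleotide reductase, had 17.4 ± 5.07 and 24.97 ± 7.09 TPM at 6m and 9.13 ± 2.66 and 15.02 ± 2.92 at 18m (adjusted p = 0.158 and 0.206). Cenpf, a kinetochore protein, had 2.63 ± 0.931 and 1.01 ± 0.0941 TPM (adjusted p = 0.151). In a fit of all 34 libraries that also held genes at 0 as a term, no cell cycle gene was called, the list median was 0.07, and Birc5 and Cenpf had log2 fold changes of 0.03. With 1 mean per age fitted to all 34 libraries, 10 of the 25 were called lower, beside 2324 of all 13248 genes. That fit takes its error in part from less variable ages. The median SD of log2 values was 0.296 at 6m and 0.247 at 18m, and 0.128 to 0.178 at the other ages.

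The promoters of Pclaf, Cdkn3 and Birc5 are shown because CCAAT boxes are a usual feature of promoters of proliferation genes. A part of the motif in the falls was not tested. The 250 bases before the RefSeq start (GRCm38.p6, plus strand, 5′ to 3′) were chr9:65890073-65890322 for Pclaf, chr14:46760291-46760540 for Cdkn3 and chr11:117848987-117849236 for Birc5, and capitals mark CCAAT on either strand.
Pclaf: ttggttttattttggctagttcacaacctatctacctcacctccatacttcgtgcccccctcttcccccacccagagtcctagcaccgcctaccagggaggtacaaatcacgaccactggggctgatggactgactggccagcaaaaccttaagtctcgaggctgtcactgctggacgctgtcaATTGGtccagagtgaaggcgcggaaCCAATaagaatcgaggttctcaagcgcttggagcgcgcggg
Cdkn3: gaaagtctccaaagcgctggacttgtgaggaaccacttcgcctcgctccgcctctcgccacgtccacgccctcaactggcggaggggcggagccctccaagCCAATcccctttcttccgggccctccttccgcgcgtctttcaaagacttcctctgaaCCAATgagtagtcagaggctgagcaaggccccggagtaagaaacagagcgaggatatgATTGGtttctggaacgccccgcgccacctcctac
Birc5: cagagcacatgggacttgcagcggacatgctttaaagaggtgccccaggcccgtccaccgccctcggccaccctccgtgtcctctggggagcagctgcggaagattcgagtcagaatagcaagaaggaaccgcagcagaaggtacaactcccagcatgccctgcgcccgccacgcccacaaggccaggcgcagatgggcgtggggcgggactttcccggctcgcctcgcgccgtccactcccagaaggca
The letters CCAAT occurred 2 times in the Pclaf window, 3 times in that of Cdkn3 and 0 times in that of Birc5. The GENCODE start of Pclaf given above lies upstream of both of its matches, so by that annotation they are inside the gene. Of 32851 promoter windows of the same length, 33.8% hold the motif, so that a match is a description and no site.

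Most of the falls were of another kind. Of the 47 genes called lower, 35 had a mean under 1 TPM at 18m, from 6m means of 1.16 to 4.17 TPM, and 5 of them were listed at 0 in all 4 libraries of 18m. Many of these genes are known from other tissues, and the examples here were chosen after their values were seen. Photoreceptor genes were among them. Sag, the retinal arrestin, had 4.85, 3.58, 6.93, 3.43 and 2.05 TPM at 6m and 0.624, 0.701, 0.650 and 1.51 at 18m (adjusted p = 0.0363), a call held in 1 of the 9 fits. Nrl, a transcription factor of rods, had 1.31 ± 0.392 and 0.00945 ± 0.0141 TPM, Guca1b, an activator of photoreceptor guanylate cyclase, 1.78 ± 0.588 and 0.173 ± 0.102, and Rpgrip1, a protein of the photoreceptor cilium, 2.65 ± 0.903 and 0.314 ± 0.226 (SD, n = 5 and 4, adjusted p = 0.0143, 0.0153 and 0.0153).

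Single genes known from sperm, odour sensing and the early embryo were also among these falls. Smok2b, a sperm motility kinase, had 2.15, 1.44, 3.97, 2.12 and 0.863 TPM at 6m and was listed at 0 in all 4 libraries of 18m (adjusted p = 0.0153). Spem1, a spermatid gene, went from 1.26 ± 0.195 to 0.0339 ± 0.0477 TPM, and the odour receptor Olfr801 from 1.67 ± 0.783 to 0.00572 ± 0.0114 TPM (SD, n = 5 and 4, adjusted p = 0.0131 and 0.0196). The 2 largest falls in log2 units among the called genes were Duxf3 and Akr1cl. Duxf3, of the Dux homeobox family of the early embryo, was at -1.996 ± 0.25 (SE, adjusted p = 0.00525). The aldo-keto reductase gene Akr1cl was at -1.96 ± 0.21 (SE, adjusted p = 0.00525). Akr1cl had 3.26, 2.53, 4.02, 3.70 and 1.59 TPM at 6m and 0, 0.0242, 0 and 0 at 18m. At 12m it was listed at 0 in replicates 1 and 2 and had 6.77 TPM in replicate 3.

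That split was the rule for this class. Each 12m library was placed by whether it was nearer to the 6m or to the 18m mean on the log2 scale. Replicates 1 and 2 were nearer to 18m and replicate 3 nearer to 6m for 34 of the 35 falls that ended under 1 TPM, Cdkn3 being the exception. The same held for 5 of the 12 falls that ended at 1 TPM or more, namely Ppp2cb, Mbd2, Cd38, Pclaf and Kcng4, and for 23 of 71 uncalled genes with a log2 fold change of -1 or lower. It held for none of the 12 rises (0). For Sncg, Aoc1, Chst5 and Tmem255b the split was the reverse, with replicates 1 and 2 nearer to 6m and replicate 3 nearer to 18m. In each of the 12 rises replicate 3 lay furthest toward 18m of the 3 libraries. Replicate 3 was nearer to 6m for all 47 falls. All 3 libraries of 12m were nearer to 6m for Thbs4, Slc39a12 and Tmem91 and for the 4 rises of the duplicated locus, and all 3 were nearer to 18m for the rises of C3 and Tmem59l. Younger adults were placed in the same way. The 3m mean was nearer to 6m for all 47 falls but for only 4 of the 12 rises. The P60 mean was nearer to 6m for 39 of the 47 falls and 4 of the 12 rises. Among the 12 falls that ended at 1 TPM or more, the P60 mean was nearer to 6m for 6. When all 34 libraries were fitted with age and genes at 0 together, 36 genes were called, 27 higher and 9 lower. Of the 59, 5 were among them (C3, Plac9b, Tmem254b, Tmem59l and 4930572O03Rik), and no gene called lower was. That term is fitted in part from libraries in which age and the number of genes at 0 move together.

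**Figure D4:**
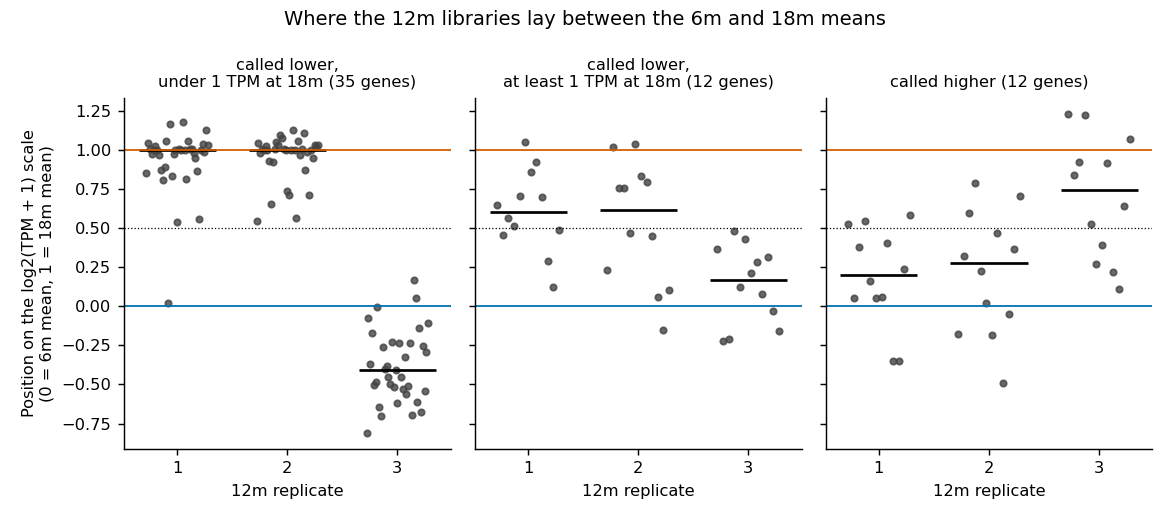
Position of each 12m library (x axis, replicate) between the mean of 6m (0, blue line) and of 18m (1, orange line) on the log2(TPM + 1) scale (y axis), for the 35 falls under 1 TPM at 18m, the 12 other falls and the 12 rises; points are genes and thick lines medians. For 34 of the 35 low falls replicates 1 and 2 sit on the 18m side of the midpoint and replicate 3 on the 6m side, while the other panels show smaller gaps between the libraries.

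Of the 591 tested genes on 36 lists, 4 were called (0.677%), C3 higher and Birc5, Thbs4 and Mbd2 lower, near the share of 0.445% over all genes. An unadjusted p under 0.05 was reached by 117 (19.8%), near the 17.6% over all genes, and 31 lists had no called member. List medians below are log2 fold changes to be read against the median of -0.14 over all tested genes. Counts at an unadjusted p under 0.05 are to be read against 13.9% lower and 3.8% higher over all tested genes. A fall in bulk RNA can mean fewer cells of a type or less RNA per cell, and these cannot be told apart here.

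Mature astrocyte markers had a median of -0.42, and 9 of 25 were lower and 1 higher at an unadjusted p under 0.05, with none called. Gja1, the connexin of astrocyte gap junctions, had 3067, 2756, 2912, 3292 and 1477 TPM at 6m and 1055, 1450.3, 1365 and 1856 at 18m. Replicate 5 of 6m fell inside the 18m range and the other 4 libraries above it (log2 fold change -0.89 ± 0.24 SE, adjusted p = 0.151). The same library was the lowest of 6m for the sodium pump subunit Atp1b2, the bicarbonate transporter Slc4a4, the water channel Aqp4 and the glutamate transporters Slc1a2 and Slc1a3. These 5 had log2 fold changes of -0.53 to -0.80 with adjusted p of 0.114 to 0.253. Slc1a3 had 3608, 3525, 3973, 3916 and 2316 TPM at 6m and 1869.7, 2620.0, 2417 and 2636 at 18m, and 12m stood at 3324, 3321 and 3305. Without 6m replicate 5, the 6m library most like 18m, 7 of the 25 markers were called lower, beside 162 of all 13248 genes. That library was the lowest of 6m for the markers named above, so leaving it out widens their difference and the count is no separate support. Gja1, Atp1b2 and Slc4a4 were called in that fit alone of the 9 that left out 1 library.

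The remaining markers named here went both ways, and none was called. Aldh1l1, a folate enzyme used as a pan-astrocyte marker, had 279 ± 41.4 and 189 ± 37.4 TPM (SD, n = 5 and 4, adjusted p = 0.169). Gfap, the astrocyte intermediate filament, had 604, 790.1, 347, 519 and 291 TPM at 6m and 582, 369.5, 447 and 257 at 18m, fully overlapping (log2 fold change -0.27 ± 0.31 SE, adjusted p = 0.652). Aldoc, a glycolytic enzyme, and Apoe, the main lipid carrier of brain, had log2 fold changes of 0.06 ± 0.31 and 0.17 ± 0.20 (SE, adjusted p = 0.938 and 0.658). Glul, Sox9 and S100b, with values of -0.37 ± 0.20, -0.47 ± 0.24 and 0.39 ± 0.35, and the neurotensin receptor Ntsr2 at 0.58 ± 0.26 were not called (SE, adjusted p = 0.338, 0.324, 0.547 and 0.2798). Etnppl, a phosphoethanolamine lyase, ran from 19.2 to 239.6 TPM within 6m and from 23.3 to 269 within 18m, so that its difference (0.36 ± 0.93 SE) was smaller than its spread.

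Cholesterol biosynthesis was the list with the most members at an unadjusted p under 0.05, 12 of 23, all lower. By share the oligodendrocyte precursor list was ahead, with 7 of 10. Of the 23 cholesterol genes 21 were negative, with a median of -0.40 and none called. The mean log2 level of the cholesterol list was 6.52 to 6.93 in the libraries of 6m and 6.08 to 6.51 in those of 18m. Cyp51, the lanosterol demethylase, had 82.2, 100.2, 149.8, 160.3 and 96.7 TPM at 6m and 46.7, 60.4, 78.3 and 64.3 at 18m, with no overlap (log2 fold change -0.88 ± 0.21 SE, adjusted p = 0.114). Hmgcs1 and Lss, an upstream synthase and the lanosterol synthase, had log2 fold changes of -0.77 ± 0.20 and -0.78 ± 0.22 (SE, adjusted p = 0.146 and 0.169). After median-of-ratios rescaling the list median was -0.21 and 7 members passed the unadjusted threshold. With all 34 libraries in the fit 10 were called lower, beside 2324 of all 13248 genes, with an error taken in part from less variable ages.

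Oxysterol and epoxide enzymes went both ways, and none was called. Ephx2, the soluble epoxide hydrolase that breaks down epoxy fatty acids, had 237, 174, 222, 218 and 132 TPM at 6m and 91.4, 126, 112 and 117 at 18m (log2 fold change -0.79 ± 0.18 SE, adjusted p = 0.0763). All 3 libraries of 12m, at 110.3, 112 and 111 TPM, were at the level of 18m. Cyp7b1, an oxysterol hydroxylase, was at 92.0 ± 17.7 and 56.7 ± 6.51 TPM (SD, n = 5 and 4, adjusted p = 0.0845). In the other direction were Cyp27a1, a sterol hydroxylase, at 11.3 ± 1.94 and 19.0 ± 2.17 TPM, and the microsomal epoxide hydrolase Ephx1 at 125 ± 34.7 and 199 ± 23.8 TPM (adjusted p = 0.114 and 0.163). The arachidonate hydroxylase Cyp4f15 was at 226 ± 25.1 and 257 ± 41.3 TPM (adjusted p = 0.502).

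Clock and fatty acid oxidation genes had negative medians without a call. Of 18 circadian genes 6 were lower at an unadjusted p under 0.05 and none higher, with a median of -0.43. The other direction was taken by 6 members, at 0.04 to 1.16, none at an unadjusted p under 0.05. Arntl, the clock activator also called BMAL1, had 24.8 ± 8.11 and 12.0 ± 3.20 TPM (SD, n = 5 and 4, adjusted p = 0.144), and Hlf and Rorb had log2 fold changes of -0.79 ± 0.21 and -0.86 ± 0.23 (SE, adjusted p = 0.146 and 0.149). The time of day of collection is not given in the labels. Of 18 fatty acid oxidation genes 7 were lower (median -0.21, and -0.02 after rescaling), led by Ppara, the nuclear receptor that induces them, at 16.2 ± 3.38 and 8.03 ± 3.67 TPM (adjusted p = 0.158). At 12m Ppara stood at 16.4, 16.6 and 16.1 TPM.

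Of the immune lists, complement had a median near 0 and the others small positive medians. MHC class I presentation had a median of 0.28 with 2 of 12 higher at an unadjusted p under 0.05 and none called. The immunoproteasome subunits Psmb8 and Psmb9 had 23.7 ± 8.05 and 8.37 ± 3.40 TPM at 6m and 35.5 ± 4.37 and 13.7 ± 2.18 at 18m (SD, n = 5 and 4, adjusted p = 0.253 for each). H2-K1, a class I heavy chain, had 232 ± 58.3 and 296 ± 31.3 TPM (adjusted p = 0.293). Of 12 complement genes C3 was the called one, and the list median was -0.07 (0.09 after rescaling), with C4b at 32.9 ± 7.68 and 43.5 ± 4.61 TPM (adjusted p = 0.273). The reactive marker Serpina3n had 44.6, 15.3, 13.9, 24.6 and 16.2 TPM at 6m and 31.3, 33.4, 45.8 and 17.8 at 18m (adjusted p = 0.418), its highest 6m library lying with 18m. C3 is also on the list of neuroinflammatory reactive genes (median 0.29, 3 of 12 higher at an unadjusted p under 0.05). Fbln5, a matrix gene of that list, was at 28.5 ± 7.09 and 42.5 ± 7.44 TPM (adjusted p = 0.235). Interferon-stimulated genes had a median of 0.15 with 2 of 22 higher at an unadjusted p under 0.05, and ribosomal proteins a median of 0.27 with 7 of 34 higher, among them Rpl6 at 169 ± 18.7 and 211 ± 21.7 TPM (adjusted p = 0.258).

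Progenitor, matrix and chromatin genes added no further call but Mbd2. Tnc, the tenascin of immature astroglia, had 22.8, 15.04, 8.08, 12.6 and 4.22 TPM at 6m and 0.565, 3.55, 3.95 and 4.41 at 18m. With 6m replicate 5 inside the 18m range, its log2 fold change of -1.69 ± 0.48 (SE) was not called (adjusted p = 0.203). Hapln1, a link protein of hyaluronan matrix, had 90.3 ± 21.8 and 47.6 ± 11.3 TPM (SD, n = 5 and 4, adjusted p = 0.0972). Of the 16 progenitor and immature genes, 4 were lower and 3 higher at an unadjusted p under 0.05, and the list median was -0.10 (0.08 after rescaling). Among the higher were the filament gene Vim and the acyl-CoA binding protein gene Dbi, with log2 fold changes of 0.70 ± 0.27 and 0.50 ± 0.19 (SE, adjusted p = 0.258 and 0.254). On the lower side, Sox11 and the growth factor receptor Egfr had log2 fold changes of -0.67 ± 0.20 and -0.83 ± 0.25 (SE, adjusted p = 0.188 and 0.203). Cbx7, a Polycomb reader, had 14.05, 9.45, 9.45, 9.51 and 14.7 TPM at 6m and 18.4, 18.2, 35.4 and 23.5 at 18m (log2 fold change 0.97 ± 0.22 SE, adjusted p = 0.0889), with 12m at 34.2, 23.9 and 26.7. Suz12, of the other Polycomb complex, was at -0.57 ± 0.18 (SE, adjusted p = 0.214).

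**Figure D5:**
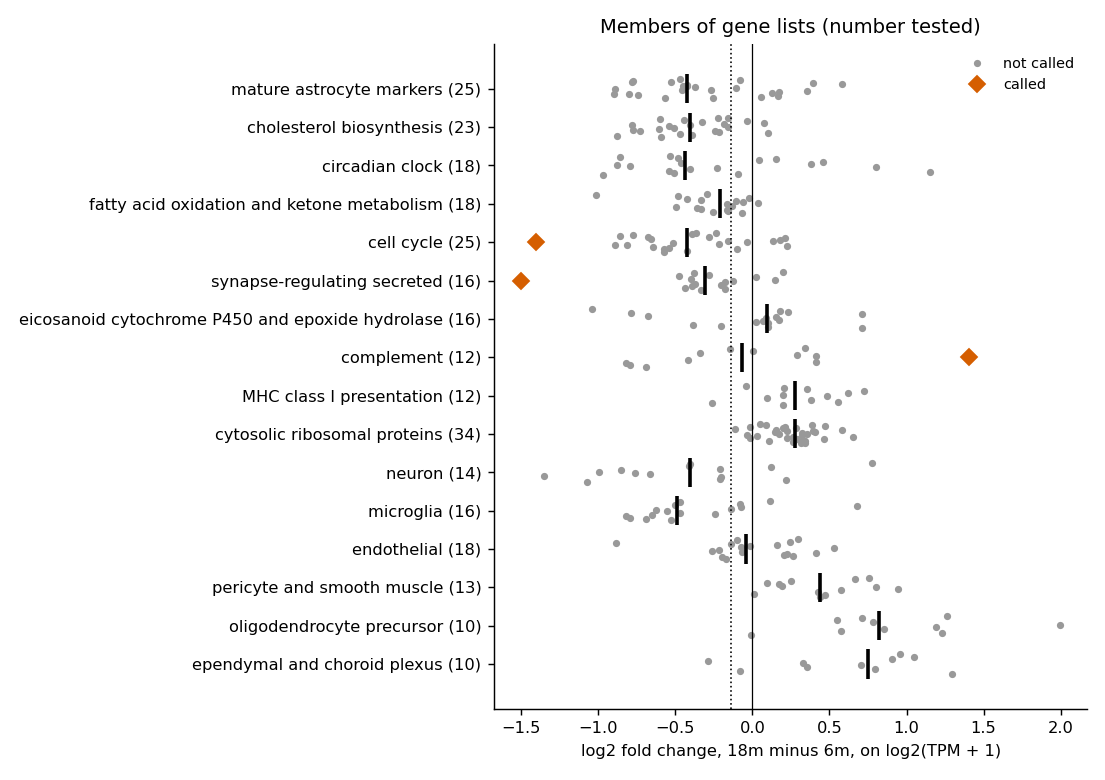
Log2 fold change from 6m to 18m (x axis) of the tested members of 16 lists (y axis); grey points were not called, orange diamonds were called, black ticks are list medians, and the dotted line is the median of -0.14 over all genes. The 3 called members of these lists are C3 (complement), Birc5 (cell cycle) and Thbs4 (synapse-regulating secreted).

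Markers of other cell types moved beside these results, and their part in them was not tested. Oligodendrocyte precursor genes had the largest median of the glial lists, 0.82, and 7 of 10 were higher at an unadjusted p under 0.05 with none called. Their summed level was 213 to 303 TPM in the libraries of 6m and 263 to 552 at 18m. Neu4, a sialidase of these cells, had 3.19, 1.14, 1.74, 7.57 and 2.25 TPM at 6m and 6.38, 15.2, 19.8 and 18.1 at 18m (adjusted p = 0.0754). The transcription factor Olig1 was at 153, 132, 121, 128 and 137 TPM and at 138, 269, 274 and 281 TPM. In both, 18m replicate 1 lay within the 6m range. It was also the lowest 18m library for 9 of the 12 genes called higher. These were Tmem59l, Tmem255b, Sncg, C3, Chst5, C1ql2, 4930572O03Rik, and Tmem254b and Tmem254c of the duplicated locus. Low values in 18m replicate 1 were not particular to precursor genes. Its mean log2 level was also the lowest of 18m for the mature astrocyte, neuron, oligodendrocyte and microglia lists. It was the highest of 18m for the ribosomal, endothelial, pericyte and erythroid lists. C1ql1 and Lhfpl3 had log2 fold changes of 1.23 ± 0.28 and 1.19 ± 0.37 (SE, adjusted p = 0.0861 and 0.223).

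Ependymal and choroid plexus genes summed to 461 to 1318 TPM at 6m and 1182 to 1873 at 18m (median 0.75, 4 of 10 higher at an unadjusted p under 0.05), with the adipokine gene Rarres2 at 367 ± 161 and 639 ± 62.1 TPM and the cilium gene Ccdc153 at 115 ± 66.9 and 261 ± 90.1 (SD, n = 5 and 4, adjusted p = 0.214 and 0.242). Pericyte and smooth muscle genes summed to 1501 to 3730 and 3337 to 5984 TPM, and all 13 were positive (median 0.44), with Tagln at 19.0 ± 4.85 and 30.4 ± 4.84 TPM (adjusted p = 0.195). Endothelial genes summed to 1216 to 5105 and 1872 to 3896 TPM with a median of -0.04, and the list was led by the thyroid hormone transporter Slco1c1, which astrocytes express too, at 718 ± 218 and 382 ± 72.4 TPM (adjusted p = 0.0942). Neuronal genes summed to 109.7 to 737 and 99.2 to 253 TPM with a median of -0.41, Rbfox3 being at -0.995 ± 0.53 and Tubb3 at 0.78 ± 0.25 (SE, adjusted p = 0.342 and 0.226). Microglial genes summed to 141 to 329.9 and 123 to 244 TPM (median -0.49), and border macrophage and T cell genes to 23.6 to 71.9 and 56.4 to 112 TPM (median 0.56), with the class II gene H2-Ab1 at 10.6 ± 5.46 and 20.2 ± 5.27 TPM (adjusted p = 0.254). Erythroid genes had the largest median of the 36 lists, 1.55, with 5 of 5 positive, and oligodendrocyte and fibroblast genes had medians of 0.52 and -0.15. Oligodendrocyte, fibroblast and erythroid genes summed to 327 to 1402, 301 to 834 and 439 to 15992 TPM at 6m and to 223 to 1561, 412 to 530.2 and 8918 to 35088 TPM at 18m. With the neuron and oligodendrocyte means as covariates 41 genes were called, 31 of them among the 59, and with the endothelial mean 114, including all 59.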

How the data were processed

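Cortical astrocyte RNA of 9 ages was measured by RNA-seq in 34 libraries. The authors deposited TPM for each library. Build mm10 is listed in the submitters' processing notes, with no roles given, beside RSEM 1.2.28, DESeq2 1.36.0, STAR 2.7.1a and Trim Galore 0.6.4. Each library summed to 1000000 TPM over 20613 genes, and 1 gene had no values. TPM hold no counts, so no counting interval is given.

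Genes that reached 1 TPM in 4 or more of the 9 libraries were fitted on log2(TPM + 1) with limma 3.58.1 in R 4.3.3 (2 groups, empirical Bayes with trend and robust settings, statmod 1.5.0), and p-values were adjusted by Benjamini-Hochberg over 13248 genes. Single values were compared by exact permutation. The method was tested on simulated data. Alternatives are given at the end.

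The ages compared, the 36 lists and the named genes were chosen with earlier results of these data known. Named were the 15 largest rises and falls of called genes, provided that the higher age averaged 5 TPM or more, the ages did not overlap and the symbol was no clone name (7 and 12 met this), up to 4 members of smallest p per list described, and 18 fixed astrocyte genes. Gene positions are from GENCODE mouse release 21 (GRCm38) and promoters from RefSeq (GRCm38.p6). Replicate numbers did not pair libraries. Figures used matplotlib 3.10.9. Some items are not reported here.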

Additional observations from a re-analysis of the deposited data

Results flagged for a closer look

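Among 180 groups of 4 or 5 libraries, 10 had a highest or lowest library far from the rest by Dixon's test at the 95% level, a rule that chance meets in about 1 in 20 groups. For genes that were called, these were Pclaf at 6m, where replicate 4 was high at 11.4 TPM, and Pclaf at 18m, where replicate 4 was low at 2.43 TPM. C3 at 6m had replicate 4 high at 1.33 TPM, just under the lowest 18m library. Sag at 18m had replicate 4 high at 1.51 TPM. Guca1b at 18m had replicate 4 low at 0.0201 TPM, and Akr1cl and Olfr801 at 18m had replicate 2 alone above 0, at 0.0242 and 0.0229 TPM. For genes that were not called, 6m replicate 5 was low for Rorb (19.3 TPM) and Slc1a3 (2316 TPM), both close to the values of 18m. Replicate 1 of 18m was low for Olig1 (138 TPM), within the range of 6m.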

How the results depend on the processing

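Beside 59 genes called (12 higher, 47 lower), the counts were 827 (51 and 776) with no filter, 7 (4 and 3) with a mean of at least 10 TPM, 91 (46 higher) after median-of-ratios rescaling, 32 and 30 after quantile normalization, 478 (239 and 239) with array weights, 2700 (376 and 2324) with all 34 libraries in the fit, 114 (37 and 77) with the endothelial covariate, 31 lower with the neuron and oligodendrocyte covariates and 36 (27 and 9) with the term for the number of genes at 0. Leaving out 1 library gave 10 to 194 genes (1 to 32 higher and 8 to 162 lower), and leaving out 6m replicate 5 and 18m replicate 1 together, added after seeing the data, gave 20 higher. Replicate numbers did not pair the libraries (correlations of deviations 0.115, 0.249, -0.032 and -0.256), and the replicate block gave 79 genes, 19 of them higher, with 39 of the 59 kept. The causes of these shifts were not tested, except that the filter of 10 TPM left 46 of the 59 untested.

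Directions that turned did so mostly with the term for the number of genes at 0. There the log2 fold change became 0.0263 for Birc5, 0.026 for Cenpf, 0.42 for Tnc, -0.0726 for Rpl6, 0.0639 for Sox9, 1.30 for Gfap, -0.71 for S100b, -0.22 for Cyp4f15, -2.41 for Etnppl and -0.62 for Aldoc, and among falls under 1 TPM 0.74 for Guca1b, 0.85 for Akr1cl, 0.18 for Exo1, 0.18 for Nrl, 0.10 for Spem1, 0.76 for Rpgrip1, 0.88 for Olfr801, 0.91 for Smok2b and 0.79 for Duxf3. Aldoc was also at -0.0871 after quantile normalization, -0.17 with array weights, -0.0431 without 6m replicate 5 and 18m replicate 1 together, and ranged from -0.21 to 0.2273 on leaving out 1 library. Etnppl then ranged from -0.13 to 1.029. Depth is unknown, so differences of genes near 0 TPM cannot be weighed by counts.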
